A study of Homo sapiens with 6 samples.

Results

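Named antisense RNAs are genes whose symbol is that of another gene followed by -AS and a number. In the count table they were taken as the rows with the biotype antisense and such a symbol, and they were selected on measured counts, with at least 10 counts in at least 3 of the 6 libraries. Of 58735 genes in the table, 972 carried such a name. Of these, 331 had 0 counts in each library, 379 had counts under the minimum, and 262 passed it and are described here. Each was paired with the gene named before -AS, its sense partner. A partner row was found for 256 of them, on 252 distinct partners, of which 250 were protein-coding. The other 6 belong to HOX clusters and name no single gene. Both genes of a pair passed the count minimum in 234 pairs, with 231 distinct partners.

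The 6 libraries came from LoVo, a human cell line established from a colorectal cancer. The cells received a negative control siRNA (si-NC, replicates 1 to 3) or an siRNA against SRSF11 (si-SRSF11, replicates 1 to 3), a serine/arginine-rich splicing factor, and no other agent is given for either group. Poly(A) RNA was read as 150 bp pairs, and totals ranged from 14369525 to 16685719 counts. Both groups are 1 cell line, which siRNA of the study was used is not stated for these libraries, and the labels do not say whether the replicates were separate cultures, so p-values measure only the spread between these samples. The study speaks of 3 pairs of independent RNA samples, without saying how they were paired. The targeted gene had 1271, 1281 and 1363 counts in si-NC and 789, 789 and 807 in si-SRSF11. The level of SRSF11 in si-SRSF11 was 57.2% of that in si-NC (log2 fold change -0.81 ± 0.0541 (SE), adjusted p = 6.1e-10, edgeR quasi-likelihood test).

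Antisense RNAs are transcribed from the strand opposite to another gene, often from a promoter shared with it or from within its introns. Some act on the partner in cis, by recruiting chromatin regulators, by interfering with its transcription or by pairing with its mRNA, and others work in trans or have no known role. Many are spliced and polyadenylated like mRNA but are scarcer and partly kept in the nucleus, where the exosome degrades those that end early.

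The way an antisense RNA faces its partner is shown first in sequence. KIF9-AS1 runs tail to tail with KIF9, a kinesin, and GAS6-AS1 tail to tail with GAS6, a secreted ligand of the TAM receptor kinases. A stretch of 30 bases is printed for each at chr3:47236057-47236086 and chr13:113834578-113834607 (GRCh38, antisense on the + strand), where an exon of the antisense RNA lies on coding sequence of the partner. Both were read from GENCODE 29 transcripts, 5′ to 3′, and all 30 bases of each pair are exact complements, so none is set in capitals.
KIF9-AS1: ggaccatgcctggccggatgctgccgcctg
KIF9: caggcggcagcatccggccaggcatggtcc
GAS6-AS1: cttgaggcccccacgcccgtcacagtggca
GAS6: tgccactgtgacgggcgtgggggcctcaag

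Such stretches matter for the counts as well. The library kit does not mark the strand of a read and the strand setting of the counting is not given in the sources used here, so reads from bases that both genes transcribe cannot be told apart. Exons of the antisense RNA and its partner shared bases in 191 of 256 pairs, with a median of 294 bp where they did. The shared bases lay on coding sequence in 119 pairs and on untranslated exon parts in 134. Over all pairs, 10.6% of antisense exon bases fell on partner exons, 28.1% on partner introns and 61.3% outside the partner. Most antisense exon sequence was therefore not shared with exons of the named partner, and 45 of the 262 RNAs shared no exon base with any gene. Bases in partner introns are transcribed from the partner too, so reads there can come from its unspliced RNA.

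Promoter windows are shown for 4 RNAs that the results turn on, DLGAP1-AS2 with the smallest adjusted p among those that fell, RASSF8-AS1 and UNC5B-AS1 as fallers with a TATA box match, and SREBF2-AS1 as the riser with an entry. RefSeq promoter sequences (GRCh38.p14, 250 bases before to 50 after the start) were matched by symbol for 194 of the 262. The windows are chr18:3603487-3603786 (+), chr12:25959393-25959692 (-), chr10:71218179-71218478 (-) and chr22:41834616-41834915 (-), in that order, and no exon of another gene lies in them. Capitals mark matches on either strand to the TATA box (TATAAA), the CCAAT box, the GC box (GGGCGG), the ETS core (CCGGAAG), the CRE core (TGACGT) or the E-box (CACGTG).
DLGAP1-AS2: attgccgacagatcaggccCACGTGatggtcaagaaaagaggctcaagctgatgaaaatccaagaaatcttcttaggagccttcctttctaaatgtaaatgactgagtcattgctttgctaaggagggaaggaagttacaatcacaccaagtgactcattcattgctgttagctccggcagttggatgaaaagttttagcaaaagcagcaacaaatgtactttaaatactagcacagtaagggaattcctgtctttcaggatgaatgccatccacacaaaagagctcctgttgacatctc
RASSF8-AS1: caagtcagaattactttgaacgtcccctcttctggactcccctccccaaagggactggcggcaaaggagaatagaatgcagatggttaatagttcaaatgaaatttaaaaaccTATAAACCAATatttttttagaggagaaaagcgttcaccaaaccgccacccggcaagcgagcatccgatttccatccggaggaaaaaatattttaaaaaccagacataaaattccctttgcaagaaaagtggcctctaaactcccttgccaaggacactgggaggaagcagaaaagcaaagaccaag
UNC5B-AS1: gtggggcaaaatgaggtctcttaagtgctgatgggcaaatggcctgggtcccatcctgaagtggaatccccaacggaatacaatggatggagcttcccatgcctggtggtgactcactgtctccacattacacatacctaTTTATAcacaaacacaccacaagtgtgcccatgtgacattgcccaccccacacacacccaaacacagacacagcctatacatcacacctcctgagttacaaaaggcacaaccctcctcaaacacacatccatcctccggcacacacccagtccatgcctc
SREBF2-AS1: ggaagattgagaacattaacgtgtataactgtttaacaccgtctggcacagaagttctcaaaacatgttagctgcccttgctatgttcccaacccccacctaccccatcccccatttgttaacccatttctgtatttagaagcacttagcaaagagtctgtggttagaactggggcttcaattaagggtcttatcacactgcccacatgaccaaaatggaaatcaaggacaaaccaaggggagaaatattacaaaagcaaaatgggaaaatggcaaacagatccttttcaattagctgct

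These windows differ from each other. DLGAP1-AS2 held 1 E-box match and RASSF8-AS1 a TATA box and a CCAAT box match side by side. UNC5B-AS1 held a TATA box match on the opposite strand, and SREBF2-AS1 none of the 6 motifs. The matches are of letters only, and both TATA box matches lie well before the start. Of the 27 windows of RNAs called lower, 4 held a TATA box match (14.8%, all promoters 12%). The RefSeq start of DLGAP1-AS2 lay 737 bp from the GENCODE start and that of RASSF8-AS1 323 bp, so those windows describe the RefSeq start only. Over the 194 windows the median GC content was 63.2%, against 58.3% over all 27305 promoters in the table. A GC box was found in 53.6% of them (all promoters 44.6%), a CCAAT box in 37.6% (35.7%), a TATA box in 9.28% (12%), a CRE core in 10.8% (8.32%), an E-box in 10.3% (7.43%) and an ETS core in 8.76% (10.7%). The 194 RefSeq windows were thus richer in G and C than promoters at large, and in 8 of them the start of the sense partner lay inside the same 300 bases. In 134 of the 194 the RefSeq start lay within 100 bp of the GENCODE start, and the others describe a start farther from it.

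Levels were low. Levels in CPM (each count divided by the TMM-scaled library total) averaged over the 6 libraries ran from 0.533 to 251, with a median of 2.11; 53 RNAs were under 1 CPM and 28 over 10. The 4 most abundant took 34.8% of the summed CPM of the 262. These RNAs as a whole took 0.1742%, 0.1794% and 0.1739% of all counts in si-NC and 0.1674%, 0.1637% and 0.1562% in si-SRSF11, so the groups did not overlap. In bulk RNA, fewer cells of a kind and less RNA per cell cannot be told apart. Per kilobase of exon, the antisense level was a median of 21.1% of the partner's level over 234 pairs, and it was above the partner's in 37. The extreme was DLGAP1-AS2, at 136 times DLGAP1, a postsynaptic scaffold gene with 12 to 27 counts per library. AFAP1-AS1 stood at 12 times AFAP1, which encodes an actin filament-associated protein.

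After SRSF11 knockdown, 32 of the 262 RNAs were called lower and 2 higher (adjusted p under 0.05 over all 15801 tested genes, edgeR quasi-likelihood test). The 32 are 12.2% of the set, near the 11.4% of all tested genes that were called lower. The 2 called higher are 0.763%, against 13.2% of all tested genes. The median log2 fold change was -0.18 (quartiles -0.46 and 0.05) and 80 of the 262 lay above 0, whereas the median over all tested genes was 0.00 with 50.2% above 0. Libraries of the 2 groups did not overlap for 64 RNAs that were lower (24.4%, all tested genes 18.9%) and for 14 that were higher (all tested genes 20%). The count rule let 3 RNAs in through si-NC alone, and without them 31 of 259 were called lower and 2 higher.

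**Figure D1:**
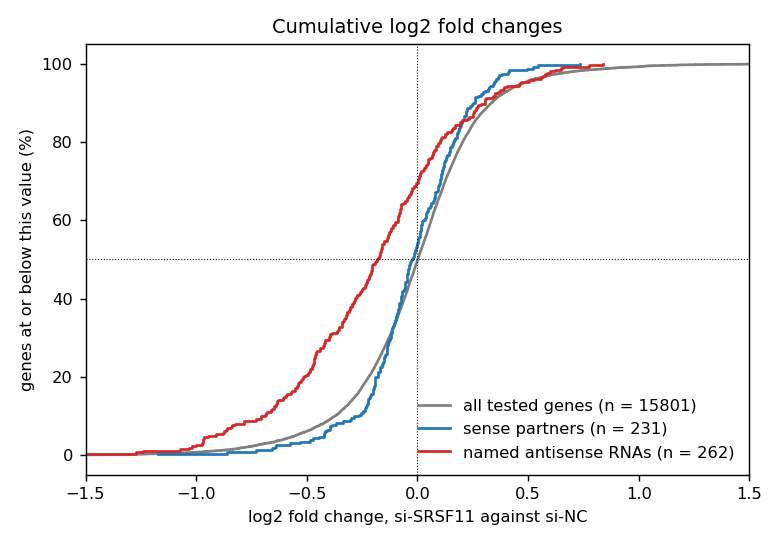
Cumulative share of genes (y axis, percent) at or below each log2 fold change of si-SRSF11 against si-NC (x axis) for the 262 named antisense RNAs (red), their 231 tested sense partners (blue) and all 15801 tested genes (grey). The red curve crosses 50% at -0.18, the blue at -0.03 and the grey at 0.00, and the curves come together on the right.

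The number called moved with single libraries. It was 16 lower without si-NC replicate 1, 21 without si-NC replicate 2, 21 without si-SRSF11 replicate 2 and 18 without si-SRSF11 replicate 3, and 1 higher without si-NC replicate 1 or si-NC replicate 3. DESeq2 called 19 lower and 1 higher. The sign of each of the 34 calls was the same in all 6 fits that left out a library, and 9 calls held in all of these, among them DLGAP1-AS2, NOP14-AS1, ZEB1-AS1, RASSF8-AS1, GABPB1-AS1, UNC5B-AS1, SRRM2-AS1 and AFAP1-AS1.

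Low counts bear on the comparison with other genes. Of 3128 protein-coding genes between 0.698 and 11 CPM, the range from the 10th to the 90th percentile of the antisense RNAs, 173 were called lower (5.53%) and 220 higher (7.03%), with a median of 0.00. Of the 67 antisense RNAs at or over 5 CPM, 17 were called lower (25.4%) and 2 higher (2.99%), and of the 195 under 5 CPM, 15 (7.69%) and 0. All tested genes had 11.4% lower and 13.2% higher. For the 45 whose exons touched those of no other gene, the median was -0.21, with 4 called lower (8.89%) and 0 higher. The downward median was thus there without shared exons (its own difference from the other genes was not tested), although exons can lie in introns of other genes. Other transcripts of the antisense biotype (668, 56 lower or 8.38%, 7 higher or 1.05%, median -0.18) and lincRNAs (713, 79 lower or 11.1%, 20 higher or 2.81%, median -0.13) lay on the same side by median. Their shares called lower did not exceed that of all tested genes. The lower median was thus not a feature of the named RNAs alone.

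DLGAP1-AS2 showed the smallest adjusted p. It is transcribed from 2 exons at chr18:3603000-3608336 (+), wholly in introns of DLGAP1, and shares no exon base with another gene. Its counts were 764, 821 and 831 in si-NC and 472, 510 and 455 in si-SRSF11. The 3 si-SRSF11 libraries were well below all si-NC libraries, at 55.9% of the si-NC level (log2 fold change -0.84 ± 0.0656, adjusted p = 4.8e-09, edgeR). DLGAP1 had 12, 14 and 23 against 16, 18 and 27 counts, with overlapping groups (adjusted p = 0.68, edgeR), and DLGAP1-AS1, another antisense RNA of the same locus, had 24, 26 and 18 against 28, 31 and 20 (adjusted p = 0.80, edgeR).

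NOP14-AS1 and GABPB1-AS1 were also among the 6 most abundant. NOP14-AS1 (chr4:2934899-2961738, +), tail to tail with the ribosome assembly factor gene NOP14, had 662, 651 and 766 counts in si-NC and 614, 560 and 585 in si-SRSF11 (log2 fold change -0.33 ± 0.0706). GABPB1-AS1 (chr15:50354959-50372202, +), head to head with GABPB1, which encodes a subunit of the ETS factor GABP, had 1908, 2434 and 2085 and then 1818, 2034 and 1799 (-0.28 ± 0.0642). Raw counts of GABPB1-AS1 overlap, whereas its scaled levels do not (142 ± 15.9 CPM against 117 ± 7.46, SD, n = 3). Both falls were small and passed the edgeR test, with adjusted p = 0.0015 and 0.0030.

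ZEB1-AS1 and SRRM2-AS1 overlap their partners at the 5′ end. ZEB1 encodes a zinc-finger repressor of epithelial genes such as E-cadherin. ZEB1-AS1 has 6 exon blocks at chr10:31206278-31320447 (-) and starts 1952 bp from the start of ZEB1. It had 210, 205 and 230 counts in si-NC and 161, 172 and 155 in si-SRSF11, with no overlap (log2 fold change -0.49 ± 0.108, adjusted p = 0.0017, edgeR). SRRM2-AS1 (chr16:2737076-2752600, -) starts 271 bp from the start of SRRM2, a splicing coactivator of nuclear speckles. Its counts were 190, 159 and 164 in si-NC and 131, 116 and 132 in si-SRSF11 (-0.53 ± 0.129, adjusted p = 0.0042, edgeR). The partner was called in neither pair: ZEB1 had log2 fold change 0.30 ± 0.151 (adjusted p = 0.16) and SRRM2 0.10 ± 0.062 (adjusted p = 0.25, edgeR). Without si-SRSF11 replicate 3, SRRM2 was called higher (0.19).

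RASSF8-AS1, HMGN3-AS1, ASB16-AS1 and SBF2-AS1 were called lower while the partner was not called. RASSF8-AS1 (partner a Ras-association domain gene) had 177, 188 and 197 counts against 149, 141 and 132 (-0.50 ± 0.115, adjusted p = 0.0025, edgeR). HMGN3-AS1, beside the gene of a nucleosome-binding protein, fell furthest of the 12 with the smallest adjusted p, from 37, 26 and 26 counts to 14, 12 and 14 (-1.24 ± 0.32, adjusted p = 0.0066, edgeR). Its counts were the lowest and its error the widest of these 12. ASB16-AS1 had 164, 144 and 128 against 112, 110 and 98 (-0.54 ± 0.142), and SBF2-AS1 112, 96 and 112 against 76, 53 and 88 (-0.65 ± 0.175). Of the exon bases of these last RNAs, 31.1% and 32.2% lie on exons of ASB16 and SBF2, so both genes of a pair can hold the same reads. ASB16 was not called, but it fell about as far as ASB16-AS1, without overlap between the groups. It had 35, 39 and 36 counts against 29, 26 and 26 (-0.53 ± 0.253, adjusted p = 0.13, edgeR). The calls of HMGN3-AS1 (-1.02), ASB16-AS1 (-0.41) and SBF2-AS1 (-0.58) were lost without si-NC replicate 1, and that of SBF2-AS1 (-0.46) also without si-SRSF11 replicate 2. Without si-SRSF11 replicate 1, SBF2 itself was called lower (-0.29).

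AFAP1-AS1 and SREBF2-AS1 rose. AFAP1-AS1 was the most abundant of the 262 and lies at chr4:7754090-7778928 (+). Of its exon bases, 7.70% lie on AFAP1 exons, 91.3% in AFAP1 introns and 1.03% outside AFAP1. Its counts were 3138, 3074 and 3360 in si-NC and 4929, 4789 and 4292 in si-SRSF11, which is 138% of the si-NC level with all knockdown libraries above all controls (0.46 ± 0.0568, adjusted p = 3.3e-06, edgeR). AFAP1 itself had log2 fold change -0.08 ± 0.0831 (adjusted p = 0.51, edgeR). SREBF2-AS1 (chr22:41831215-41834665, -), 1586 bp from the start of SREBF2, which encodes the main activator of sterol synthesis genes, had 140, 151 and 150 counts against 186, 179 and 234 (0.35 ± 0.120, adjusted p = 0.036, edgeR). This call was lost with DESeq2 (0.35), with scaling by library size alone (0.32), and without si-NC replicate 1 (0.34), si-NC replicate 2 (0.37), si-NC replicate 3 (0.34) or si-SRSF11 replicate 3 (0.23). SREBF2 had 3251 to 3564 counts in si-NC and 3483 to 3563 in si-SRSF11 (-0.03 ± 0.0467).

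The other 20 RNAs called lower had log2 fold changes from -1.72 to -0.17 and adjusted p from 0.012 to 0.049. Among these, FGD5-AS1 (chr3:14920347-14948424, -), one of the 6 most abundant, had 1645, 1752 and 1740 counts in si-NC and 1626, 1605 and 1635 in si-SRSF11, at 89.0% of the si-NC level (-0.17 ± 0.0478, adjusted p = 0.013, edgeR). Its call was lost without si-NC replicate 1, si-NC replicate 2 or si-SRSF11 replicate 2. The lowest value belongs to SAPCD1-AS1, named after its values were seen, with 11, 13 and 14 counts in si-NC and 6, 0 and 6 in si-SRSF11. It is 1 of the 3 that passed the count minimum through si-NC alone, and so had to be lower in si-SRSF11.

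Of the 231 tested partners, 28 were called higher and 35 lower (12.1% and 15.2%), with a median log2 fold change of -0.03. These shares lie near the 13.2% and 11.4% of all tested genes. Without si-NC replicate 1 there were 18 higher and 19 lower, and without si-NC replicate 3 there were 19 lower. The antisense log2 fold change was below that of the sense gene in 151 of 234 pairs. The antisense RNA was called in 31 of these pairs, and in 23 of the 31 the partner was not called. The partner alone was called in 55 pairs. Across the 234 pairs the 2 log2 fold changes correlated weakly, with Pearson's r = 0.15 and Spearman's rho = 0.21. In the 58 pairs that share no exon base r was 0.33, and in the 176 that do it was 0.10. These are descriptions: the pairs come from the same 6 libraries, and both genes of a pair can hold the same reads where exons are shared. Over all 256 pairs, 28.1% of antisense exon bases lie in partner introns, where reads can come from unspliced partner RNA. The 58 pairs can thus hold shared reads as well, and their extent was not tested.

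Both genes were called in 8 pairs, 4 in the same direction and 4 in opposite ones. These 8 are among 31 pairs whose antisense RNA was called, a share near that of called partners at large. Of all 231 tested partners, 12.1% were called higher and 15.2% lower (all tested genes 13.2% and 11.4%). KIF9-AS1 fell while KIF9 rose: the antisense counts were 136, 135 and 144 against 115, 99 and 104 (-0.47 ± 0.132, adjusted p = 0.011, edgeR), and those of KIF9 were 153, 202 and 196 against 259, 263 and 258 (0.41 ± 0.106, adjusted p = 0.0064, edgeR). The groups overlapped in neither gene, although 17.8% of the exon bases of KIF9-AS1 are shared with KIF9, in the region of the 30 bases printed above. The call of KIF9-AS1 was lost without si-SRSF11 replicate 2 (-0.42) and that of KIF9 without si-NC replicate 1 (0.32).

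GAS6-AS1 and GAS6 also moved apart. GAS6-AS1 had 46, 67 and 57 counts in si-NC and 41, 36 and 39 in si-SRSF11 (-0.64 ± 0.214, adjusted p = 0.032, edgeR). GAS6 had 1725, 1804 and 1969 and then 2311, 2410 and 2612 (0.33 ± 0.050, adjusted p = 5e-05, edgeR). The antisense call was lost with DESeq2 (-0.64) and without si-NC replicate 2 (-0.50), si-NC replicate 3 (-0.66), si-SRSF11 replicate 2 (-0.58) or si-SRSF11 replicate 3 (-0.64). TMEM9B-AS1 with TMEM9B (-0.97 and 0.21) and OGFR-AS1 with OGFR, the opioid growth factor receptor gene (-0.87 and 0.22), named after their values were seen, went the same way as these. The call of TMEM9B-AS1 was lost without si-NC replicate 2 (-0.77) and that of OGFR-AS1 with DESeq2 (-0.88) and without si-NC replicate 1 (-0.55), si-SRSF11 replicate 2 (-0.86) or si-SRSF11 replicate 3 (-0.80). TMEM9B was not called with DESeq2 (0.20), with scaling by library size (0.17) or without si-NC replicate 1 (0.18), si-NC replicate 2 (0.22), si-NC replicate 3 (0.23) or si-SRSF11 replicate 3 (0.14), and OGFR not without si-NC replicate 1 (0.20).

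In the other 4 pairs both genes fell, and 3 of these are described. UNC5B-AS1, with all exons in introns of the netrin receptor gene UNC5B, had 90, 112 and 112 counts against 43, 72 and 79 (-0.78 ± 0.183, adjusted p = 0.0030, edgeR). UNC5B fell from between 1505 and 1544 counts to between 1213 and 1242 (-0.39 ± 0.051, adjusted p = 6e-06, edgeR). SPRY4-AS1, beside the receptor tyrosine kinase signalling inhibitor SPRY4, had 39, 33 and 53 against 24, 30 and 23 counts (-0.78 ± 0.262, adjusted p = 0.032, edgeR), and SPRY4 itself -0.13 ± 0.0478 (adjusted p = 0.046, edgeR). The SPRY4-AS1 and SPRY4 calls were lost with DESeq2 (-0.79 and -0.14). The SPRY4-AS1 call was also lost without si-NC replicate 1, si-NC replicate 3, si-SRSF11 replicate 1 or si-SRSF11 replicate 3, and that of SPRY4 without any 1 of the si-NC libraries or si-SRSF11 replicate 3. TAPT1-AS1 and TAPT1 (-0.87 and -0.42), named after their values were seen, fell as well, and the TAPT1-AS1 call was lost with DESeq2 (-0.88) and the replicate block (-0.90) and kept only without si-SRSF11 replicate 2 among the fits that left out a library.

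Position relative to the partner divided the 262, of which 12.2% were called lower (all tested genes 11.4%) and 0.763% higher (13.2%), as follows. Of 102 RNAs that overlapped the partner head to head, 13 were called lower (12.7%) and 1 higher (median log2 fold change -0.20). Of 64 in tail-to-tail overlap, 10 were lower (15.6%) and 1 higher (-0.23), and of 52 inside the partner, 8 lower (15.4%) and 0 higher (-0.20). These shares are near that of the whole set. Of 21 that enclosed the partner, 1 was lower and 0 higher (-0.02), and of 15 divergent RNAs without overlap 0 were called either way by edgeR, with 1 at an unadjusted p under 0.05 (-0.10). The 2 convergent RNAs without overlap were not called (-0.58). Medians were below 0 in each of these classes, and differences between the classes were not tested. For the 72 RNAs whose 5′ end lay within 1000 bp of the partner's, 6 were called lower (8.33%) and 0 higher (-0.16), beside 9 lower (12.7%) and 8 higher (11.3%) of their 71 tested partners (-0.04). Those called lower had a median of 5 exon blocks and 2854.5 exon bases, and those not called 4 and 2541.5. The RNAs called lower were also more abundant, with a median of 5.63 CPM against 1.96, and calls depend on abundance.

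The ratio of antisense to sense counts within a library does not depend on library scaling. The log2 ratio in si-SRSF11 was below all si-NC values in 46 of 234 pairs and above them in 11, with a median change of -0.19. Among all 3173 tested gene pairs on opposite strands with overlapping spans, the ratio of the scarcer to the more abundant gene was lower without overlap in 19.6% and higher in 11.7%. The antisense RNA was the scarcer gene in 209 of the 234 named pairs and the more abundant one in 25. With the ratio of the 25 turned to match that background, a step added after the values were seen, 45 pairs (19.2%) were lower and 12 (5.13%) higher. With 3 against 3 libraries, the smallest exact two-sided permutation p is 0.10, so no single ratio can pass 0.05.

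The 6 largest changes with at least 30 antisense counts in each library were all falls. The log2 ratio of DLGAP1-AS2 to DLGAP1 was 5.93, 5.82 and 5.14 in si-NC and 4.84, 4.79 and 4.05 in si-SRSF11, a change of -1.08 with few DLGAP1 counts. GAS6-AS1 went from -5.21, -4.74 and -5.10 to -5.80, -6.05 and -6.05 (-0.95), and KIF9-AS1 from -0.17, -0.58 and -0.44 to -1.17, -1.41 and -1.31 (-0.90). ZEB1-AS1 showed the tightest controls. Its log2 ratio to ZEB1 was 1.46, 1.48 and 1.50 in si-NC and 0.74, 0.84 and 0.51 in si-SRSF11 (-0.79). ATP2A1-AS1, inside the gene of the muscle calcium pump SERCA1, went from 0.28, 0.59 and 0.00 to -0.51, -0.65 and -0.20 (-0.74), with neither gene called except ATP2A1 without si-SRSF11 replicate 3 (0.67). Of the exon bases of ATP2A1-AS1, 42.2% lie on ATP2A1 exons and 57.8% in its introns, so both genes can hold the same reads. SRRM2-AS1 changed by -0.62. The reverse case was AFAP1-AS1, whose log2 ratio to AFAP1 was 2.82, 2.61 and 2.77 against 3.25, 3.24 and 3.34 (0.55).

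**Figure D2:**
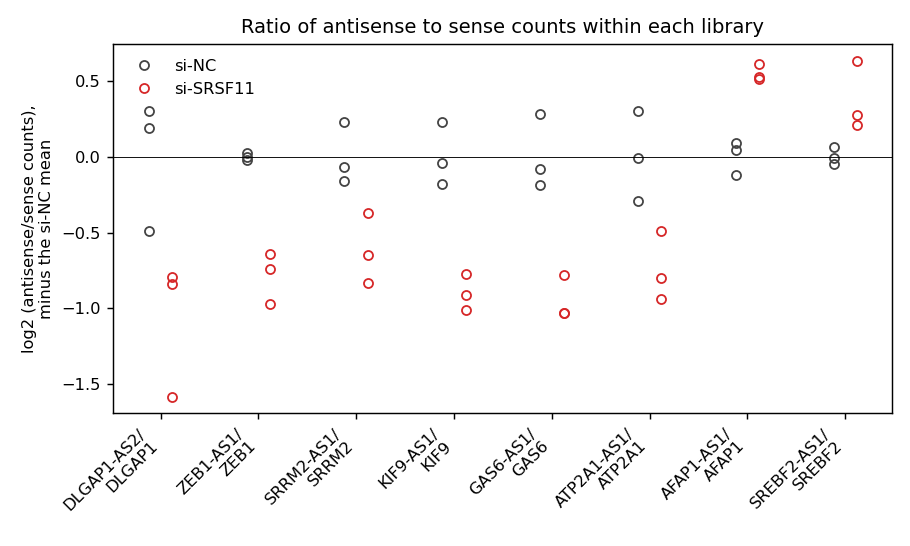
Log2 ratio of antisense to sense counts in each library, minus the mean of the 3 si-NC libraries (y axis), for the 6 pairs with the largest change and for the pairs of the 2 RNAs called higher. The si-SRSF11 libraries (red) lie below all si-NC libraries (dark) in the first 6 pairs and above them in the last 2.

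A chosen list of antisense RNAs studied in cancer, which need not be complete, held 26 of the 262. Of these, 7 were called lower (26.9%) and 1 higher (3.85%), with a median of -0.17. All tested genes had 11.4% lower and 13.2% higher, but these 26 had a median level of 6.21 CPM. Of the 67 antisense RNAs at or over 5 CPM, 25.4% were called lower and 2.99% higher, and of the 195 under 5 CPM, 7.69% and 0. The list holds RNAs of both levels, and the 67 include some of them, so these shares are not independent. Whether the share on the list goes with level was not tested. The 7 are DLGAP1-AS2, ZEB1-AS1, GABPB1-AS1, SBF2-AS1, FGD5-AS1, GAS6-AS1 and SPRY4-AS1, and the 1 is AFAP1-AS1. The other 18 were not called, among them PSMA3-AS1 with 386, 395 and 330 counts against 403, 459 and 394 (0.08 ± 0.0923), NNT-AS1 with 269, 264 and 268 against 255, 266 and 282 (-0.09 ± 0.0924) and TTN-AS1 with 20, 18 and 25 against 24, 19 and 15 (-0.21 ± 0.320). VPS9D1-AS1 was higher in each si-SRSF11 library, with 334, 430 and 441 against 496, 499 and 466 counts, but did not pass (0.19 ± 0.0851, adjusted p = 0.11, edgeR). HOXB-AS3, of a HOX cluster and among the 6 most abundant, had 1455 to 1672 counts in si-NC and 1555 to 1676 in si-SRSF11 (-0.03 ± 0.0502). The whole list also holds RNAs of other biotypes: of its 36 tested members 10 were lower (27.8%) and 2 higher (5.56%). The largest fall in it was of ADIRF-AS1, a processed transcript by biotype and so not among the 262, which went from 1108, 1164 and 1173 counts to 322, 312 and 347 (-1.90 ± 0.0645, adjusted p = 5.5e-15, edgeR), with 27.3% of its exon bases shared.

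Genes that may act on antisense RNAs were read from lists, beside the 13.2% of all tested genes called higher and the 11.4% called lower. The nuclear exosome and its cofactors, which degrade short non-coding RNAs, had 3 of 27 called higher (11.1%) and 2 lower (7.41%; median 0.05), among them SRRT, the ARS2 adaptor of the cap-binding complex (0.33 ± 0.0505), and the exosome subunits EXOSC6 (-0.25 ± 0.0636) and EXOSC1 (-0.24 ± 0.0641). These shares do not exceed those of all tested genes. The Integrator complex, which ends transcription early at many loci, had 2 of 15 higher (13.3%) and 1 lower (6.67%; median 0.06), with INTS2 and INTS9 both at 0.35 and INTS7 at -0.21. Cleavage, polyadenylation and termination factors had 5 of 25 higher (20%) and 2 lower (8%; median 0.09). In that list CPSF6, a subunit of cleavage factor Im, rose from 42.4 to 68.9 CPM (0.70 ± 0.0612, adjusted p = 2.9e-08, edgeR), SYMPK rose by 0.22 and CPSF4 fell by 0.35 on the log2 scale.

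Genes for handling or sensing double-stranded RNA had 8 of 24 called higher (33.3%) and 0 lower by edgeR, with a median of 0.09, where all tested genes had 13.2% higher and 11.4% lower. By non-overlap of the libraries, 9 were higher and 0 lower (all tested genes 20% and 18.9%). DHX9, a helicase that unwinds RNA duplexes, rose from 123 to 162 CPM (0.40 ± 0.0460, adjusted p = 1.4e-06, edgeR), DROSHA, the nuclease that cuts microRNA precursors, from 33.5 to 45.4 (0.44 ± 0.0683), and OAS3, a sensor that makes oligoadenylate, from 80.6 to 98.7 (0.29 ± 0.0570). Polycomb and other histone or DNA methylation factors had 4 of 14 higher (28.6%) and 2 lower (14.3%), with a median of 0.03. Of these, UHRF1 (0.48 ± 0.0668) and KDM1A (0.23 ± 0.0454) were higher and EZH2 (-0.22 ± 0.0600), the H3K27 methyltransferase, lower. Binding of antisense RNAs by each of these factors was not examined. The list of double-stranded RNA genes was thus the 1 among these 5 with no gene called lower. Whether any of these lists differs from the rest of the genes was not tested.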

How the data were processed

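The 6 libraries of LoVo cells were grouped by their labels. The authors deposited raw counts of reads per gene in 1 table, without normalization. The build is GRCh38 (hg38 per the labels), and all 58735 identifiers match GENCODE 29 in name and coordinates; aligner and counter are not given in the sources used here. From these counts, 15801 genes reaching 10 counts in 3 or more libraries were scaled by TMM and tested with edgeR 4.0.16 (R 4.3.3; glmQLFit, glmQLFTest, condition alone), with Benjamini-Hochberg adjustment over all of them. The fit was tested on simulated data. SE comes from the quasi-likelihood F. Ratios are log2 of (antisense + 0.5)/(sense + 0.5) counts. Exon overlap used bedtools 2.31.1, and where ZNF503 had several rows the nearest was taken. Alternatives were DESeq2 1.42.0, other scalings, filters and thresholds, a replicate block and leaving out single libraries.

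Members and lists were chosen with earlier results of these data known. Named genes are SRSF11, the 12 RNAs with the smallest adjusted p in each direction, the 6 of highest CPM, those of the cancer list, their partners, the 6 largest ratio changes with at least 30 antisense counts in each library and at most 3 genes of each other list. Some RNAs that this rule or a count covers are not reported here.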

Additional observations from a re-analysis of the deposited data

How the results depend on the processing

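RNAs called lower (32 in the report) numbered 19 with DESeq2, 5 with an absolute log2 fold change over 1 and 4 among those sharing no exon base, and 16 to 28 with 1 library left out; those called higher (2) numbered 1 with DESeq2, 1 with scaling by library size, 0 over a log2 fold change of 1, 0 without shared exons and 1 to 2 with a library left out. Of the called partners (28 higher, 35 lower), 0 and 0 passed a log2 fold change of 1, 5 and 8 shared no exon base, and 18 to 31 and 19 to 34 were called with a library left out. Pairs with a lower ratio (46) fell to 24 with at least 30 antisense counts in each library and 10 without shared exon bases, and those with a higher one (11) to 7 and 0; with a library left out they were 58 to 70 and 15 to 23, since fewer libraries overlap less. The counts without shared exons come from fewer genes, and the cause of these changes was not tested. With scaling by library size, all tested genes split into 1585 higher and 2289 lower, and their median moved by -0.03. DESeq2 tested 30 of the 34 called RNAs and kept 20. With the replicate block, 30 were called lower and 2 higher, and 29 and 36 partners higher and lower; same-numbered libraries correlated at 0.015, 0.036 and 0.04 in their deviations, too low for the numbers to be taken to pair them, although each library correlated best with its own number, a hint from the data only. Low counts limit single RNAs most. No called RNA changed sign in the refits that tested it.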

Other observations

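The 6 HOX cluster RNAs of the set, which have no single partner, were named after their values were seen, apart from HOXB-AS3 and HOXA-AS2. HOXB-AS4 had 168, 162 and 137 counts in si-NC and 206, 211 and 185 in si-SRSF11 (log2 fold change 0.27 ± 0.121, adjusted p = 0.10, edgeR), and HOXB-AS2 139, 146 and 112 against 175, 195 and 139 (0.27 ± 0.144). HOXA-AS3 had 28, 28 and 26 against 33, 46 and 42 counts (0.47 ± 0.250, adjusted p = 0.18, edgeR), without overlap between the groups. HOXA-AS2 (-0.17), HOXB-AS3 (-0.03) and HOXD-AS2 (-0.30) had values below 0. Of the 6, 0 were called (edgeR), 1 had an unadjusted p under 0.05, and the median was 0.12.

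At the count minimum, the 19 RNAs with exactly 3 libraries at 10 counts or more had mean counts from 8.33 to 10.8 (median 9.5), and the 27 with 2 such libraries, which were left out, had 6.33 to 10.3 (median 8.5). Among those kept through si-NC alone, MBNL1-AS1, inside the gene of a splicing regulator, had 11, 12 and 11 counts against 8, 9 and 5, and ZNF451-AS1 10, 13 and 11 against 8, 3 and 6. Both were named after their values were seen.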
